A study of Mus musculus with 6 samples.

Results

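Immunoglobulin heavy chain variable (Ighv) segments are the gene pieces that encode most of the antigen-binding domain of an antibody heavy chain. They were taken as the rows of the deposited expression table whose mouse symbol, looked up from the Ensembl identifier, starts with Ighv, which gave 108 of 35275 rows. The annotation used (GENCODE release M21 on GRCm38, the assembly also called mm10) holds 185 Ighv entries, and the other 77, of which 68 are pseudogenes, were not analysed here. The segments were grouped by family, which is the first number after Ighv, and by order along chromosome 12, where they span 113574245 to 116000461, with order 1 nearest the heavy chain constant genes. All but 2 lie on the minus strand.

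The libraries came from regulatory T cells (Treg cells, the Foxp3-dependent CD4+ T cells that keep immune responses in check), sorted as YFP+ cells from male mice of 6 to 8 weeks. The 3 control mice were Foxp3YFPcre animals, in which the Foxp3 gene also drives a yellow fluorescent protein fused to Cre recombinase. The 3 deletion mice were Rcor1fl/fl Foxp3YFPcre animals, which carry in addition floxed alleles of Rcor1, the gene of the corepressor scaffold CoREST1, so that Cre acts on them in Foxp3+ cells. Both groups thus carry the Cre allele, and the floxed Rcor1 alleles were present in the deletion group only. The sources used here do not give the genetic background of the 2 groups. Values are in FPKM (fragments divided by gene length in kilobases and by library size), and libraries held 18538581 to 22349455 fragments. The libraries are called control 1 to 3 and deletion 1 to 3.

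A developing B cell joins 1 Ighv segment to a diversity and a joining segment by V(D)J recombination, and the joined exon is then spliced to a constant gene such as Ighm. Mature B cells and plasma cells therefore transcribe mainly the segment each clone has chosen, and a mixture of clones shows which segments were chosen and how much each clone transcribes. T cells rearrange their T cell receptor genes instead and do not assemble a complete heavy chain. Inbred mouse strains are known to carry different sets of Ighv segments. RNA from B-lineage cells in a sorted T cell sample, more RNA per such cell and other sources of Ighv transcripts cannot be told apart in bulk libraries.

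The pairs of segments below were picked after their values were seen. In each pair the first segment was as high or higher in the deletion libraries and the second was lower there, although the sequences are close. Each line gives the last 300 bases of the variable exon in the GRCm38 reference as GENCODE M21 annotates it, 5′ to 3′ on the coding strand, with the coordinates of those bases, and capitals mark the bases that differ within the pair. Ighv2-9 (chr12:113879096-113879395, minus strand) and Ighv2-9-1 (chr12:113769850-113770149, minus strand) differ at 18 bases of the 304 of the exon, 17 of them shown.
Ighv2-9: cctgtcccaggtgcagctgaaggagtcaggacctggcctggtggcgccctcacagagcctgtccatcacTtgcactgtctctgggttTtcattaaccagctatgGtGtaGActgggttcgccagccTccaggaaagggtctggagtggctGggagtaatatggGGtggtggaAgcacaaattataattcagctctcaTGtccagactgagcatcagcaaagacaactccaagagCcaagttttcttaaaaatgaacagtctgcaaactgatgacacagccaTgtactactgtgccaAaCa
Ighv2-9-1: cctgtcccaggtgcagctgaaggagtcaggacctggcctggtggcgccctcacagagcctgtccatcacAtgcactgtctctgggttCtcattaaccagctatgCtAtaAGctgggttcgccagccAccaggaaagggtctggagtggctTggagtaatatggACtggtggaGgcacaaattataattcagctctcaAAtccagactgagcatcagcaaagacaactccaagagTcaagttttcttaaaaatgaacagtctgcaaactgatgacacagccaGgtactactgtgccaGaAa
Ighv10-1 (chr12:114479005-114479304, minus strand) and Ighv10-3 (chr12:114523441-114523740, minus strand) differ at 10 bases of the 313 of the exon.
Ighv10-1: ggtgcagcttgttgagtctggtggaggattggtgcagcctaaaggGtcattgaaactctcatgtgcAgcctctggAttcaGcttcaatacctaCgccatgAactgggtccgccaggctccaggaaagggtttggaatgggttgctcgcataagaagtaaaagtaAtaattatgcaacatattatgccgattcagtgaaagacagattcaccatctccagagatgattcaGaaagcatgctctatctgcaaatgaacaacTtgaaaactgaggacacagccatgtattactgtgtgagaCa
Ighv10-3: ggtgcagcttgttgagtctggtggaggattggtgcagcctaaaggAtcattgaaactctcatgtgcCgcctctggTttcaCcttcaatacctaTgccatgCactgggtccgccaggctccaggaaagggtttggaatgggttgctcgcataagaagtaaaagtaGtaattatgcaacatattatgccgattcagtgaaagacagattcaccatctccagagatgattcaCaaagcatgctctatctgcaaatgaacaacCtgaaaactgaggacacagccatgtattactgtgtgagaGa
Ighv14-1 (chr12:113931953-113932252, minus strand) and Ighv14-4 (chr12:114176438-114176737, minus strand) differ at 8 bases of the 305.
Ighv14-1: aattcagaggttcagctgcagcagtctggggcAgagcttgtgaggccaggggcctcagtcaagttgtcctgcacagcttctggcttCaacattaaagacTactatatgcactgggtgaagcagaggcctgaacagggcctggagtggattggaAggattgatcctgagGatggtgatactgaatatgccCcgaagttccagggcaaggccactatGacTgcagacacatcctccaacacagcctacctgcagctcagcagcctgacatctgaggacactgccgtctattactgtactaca
Ighv14-4: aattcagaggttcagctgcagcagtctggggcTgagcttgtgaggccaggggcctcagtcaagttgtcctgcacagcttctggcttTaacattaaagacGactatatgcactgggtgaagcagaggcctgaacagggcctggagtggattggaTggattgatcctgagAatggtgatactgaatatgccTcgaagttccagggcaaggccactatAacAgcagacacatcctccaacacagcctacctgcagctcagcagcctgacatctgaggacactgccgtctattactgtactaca
Ighv1-84 (chr12:115980702-115981001, minus strand) and Ighv1-75 (chr12:115833950-115834249, minus strand) differ at 12 bases of the 305.
Ighv1-84: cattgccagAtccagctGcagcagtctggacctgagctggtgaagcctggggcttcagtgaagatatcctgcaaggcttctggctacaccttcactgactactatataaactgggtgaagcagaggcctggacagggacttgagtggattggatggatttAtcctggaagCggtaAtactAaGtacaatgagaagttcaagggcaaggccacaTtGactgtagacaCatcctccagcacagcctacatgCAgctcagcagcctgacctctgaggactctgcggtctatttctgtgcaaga
Ighv1-75: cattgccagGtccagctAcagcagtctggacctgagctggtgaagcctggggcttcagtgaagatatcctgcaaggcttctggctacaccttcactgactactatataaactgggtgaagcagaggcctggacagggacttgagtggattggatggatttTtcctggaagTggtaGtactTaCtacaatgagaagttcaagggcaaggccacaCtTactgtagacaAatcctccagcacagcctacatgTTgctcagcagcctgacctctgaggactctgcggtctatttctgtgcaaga

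Levels of the paired segments diverged between the groups. Ighv2-9 read 8.04, 31.9 and 19.0 FPKM in control 1 to 3 and 119.7, 161.7 and 144.4 FPKM in deletion 1 to 3. Ighv2-9-1 read 9.28, 27.7 and 25.6 FPKM in the control libraries and 0 in all 3 deletion libraries. The close copy that was higher and the one that was lost from detection stand 6 places apart along the locus. Ighv10-1 read 17.4, 61.2 and 22.4 FPKM in control and 112.4, 145.9 and 130.2 FPKM in deletion libraries, whereas Ighv10-3 read 12.6, 64.4 and 12.5 against 11.3, 7.81 and 11.97 FPKM. Every deletion library lay above every control library for Ighv10-1 and below every one for Ighv10-3, though for Ighv10-3 by only a small gap. Ighv14-4 fell from 22.1, 19.9 and 6.64 FPKM to 0, 0.148 and 0 FPKM, while Ighv14-1 went from 13.7, 16.2 and 7.07 to 19.0, 26.9 and 26.3 FPKM. Ighv1-75 read 7.32, 29.9 and 8.76 FPKM in control and 0 in all deletion libraries, while Ighv1-84 overlapped between the groups, with 4.15, 11.2 and 0.461 against 6.63, 8.13 and 12.1 FPKM. The sources used here do not say how fragments were shared between such close copies, so single-segment levels are uncertain where copies are near identical. Over all pairs of the 100 segments above 0, the median identity of the variable exons was 85.57% within a family and 59.51% between families.

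The summed level of the locus overlapped between the groups, whereas its composition did not. The summed Ighv level was 862.9, 2697 and 1050 FPKM in control 1 to 3 and 1122, 1333 and 1578 FPKM in deletion 1 to 3, that is 1536 ± 1009 against 1344 ± 228 FPKM (SD, n = 3). The groups overlapped because control 2 stood far above all other libraries. The log2 ratio of deletion to control was -0.19 and became 0.49 without control 2. The number of segments above 0 was 85, 94 and 88 in control and 71, 77 and 73 in deletion libraries, with no overlap. At 1 FPKM or more there were 78, 86 and 78 against 58, 59 and 57 segments. Deletion 3 had the second-highest sum and, with 57, the fewest segments at that level, while control 2 had the highest sum and the most segments.

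**Figure D1:**
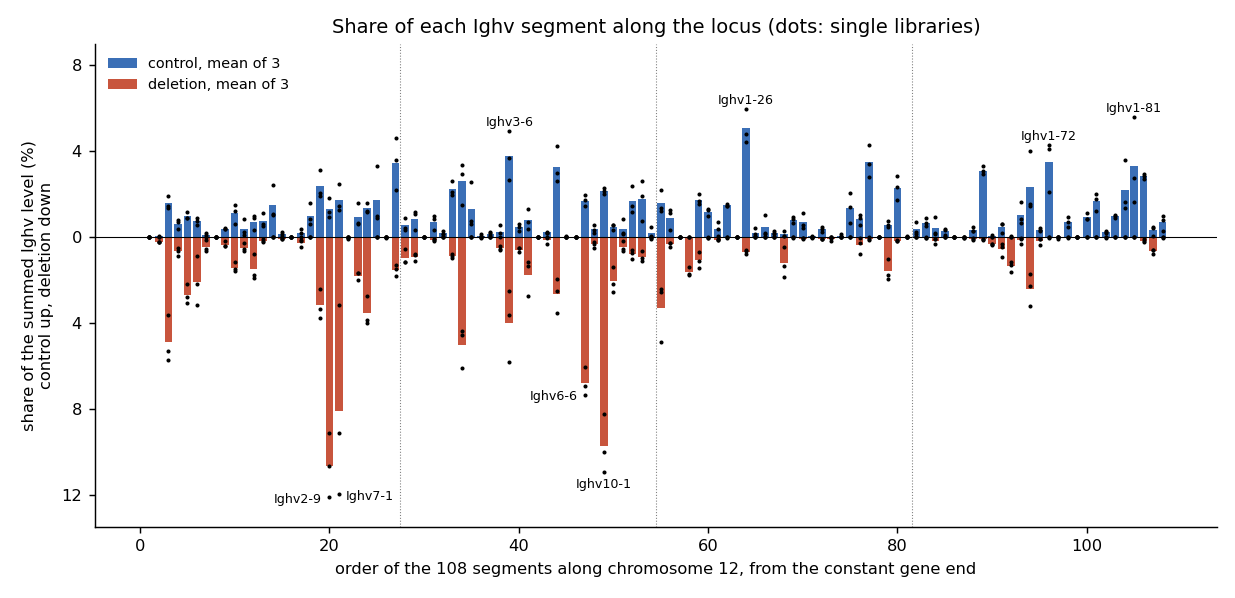
Share of the summed Ighv level (%) of each of the 108 segments in their order along chromosome 12, with control means plotted upward, deletion means downward, and a dot per library. Dotted lines part the locus into 4 stretches of 27 segments, and beyond the middle line the deletion bars are mostly short.

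Fewer segments held more of the total in the deletion libraries. The most abundant segment made up 5.96%, 4.81% and 5.58% of the summed level in control 1 to 3 and 11.98%, 12.13% and 9.15% in deletion 1 to 3. The leading 5 segments together held 22.1%, 21.2% and 22.1% in control and 44.5%, 39.7% and 39.6% in deletion libraries. The effective number of segments (the exponential of the Shannon entropy of the shares, which equals the count if all were even) was 56.7 ± 2.00 in control and 30.2 ± 1.52 in deletion libraries (SD, n = 3). By mean share, 18 segments made up 50% of the control total and 8 that of the deletion total. The leading 10 segments of the 2 groups shared only Ighv3-6 and Ighv7-3. Ighv1-26 led control 1 and 2 and Ighv1-81 led control 3, while Ighv7-1 led deletion 1 and Ighv2-9 led deletion 2 and 3.

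In the fit across all genes (limma on log2(FPKM + 1), Benjamini-Hochberg adjusted p under 0.05), 10 segments rose and 29 fell of the 85 that passed the filter of 1 FPKM in at least 3 libraries. Of all 11575 genes tested, 8.95% rose and 3.08% fell, so that the share of segments that rose (11.8%) was near the background and the share that fell (34.1%) was above it. The filter had been passed through the control libraries alone by 21 of the 29 that fell and through the deletion libraries alone by 4 of the 10 that rose, and such segments had to differ. Among the tested segments, 58 reached 1 FPKM in at least 1 library of each group, which is called passed in both groups below. Of these 58, 6 rose and 8 fell. This rule does not remove the effect of the filter, since 3 libraries of 1 group could still meet it alone. Ighv1-42, for example, read 9.57, 11.1 and 5.87 FPKM in control and 0.609, 1.17 and 0.840 FPKM in deletion libraries. Of the members that neither rose nor fell, 46 were tested and not called, 15 lay below the filter and 8 were at 0 in every library. Log2 fold changes, deletion over control, ran from 1.32 to 4.42 for those that rose and from -5.35 to -1.38 for those that fell. When single libraries were left out, 5 of the rises and 23 of the falls passed all 6 times. The filter was not redone in these fits, so most of this stability was built in by the filter. Of these rises only Ighv2-9 had passed in both groups in that sense. Of these falls only Ighv1-26, Ighv1-42, Ighv1-53, Ighv1-55, Ighv1-64 and Ighv1-82 had. The number that rose was 5 without control 1, control 3 or deletion 3, 6 without deletion 2 and 15 without control 2.

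Without a filter, and with no test, the levels of 16 segments lay higher in every deletion library than in any control library and those of 39 lay lower. Over the 21898 genes above 0, 19.3% lay higher and 8.22% lower in that way. As shares of the summed Ighv level, 22 segments lay higher, 40 lower and 46 overlapped. Shares sum to 100% in each library, so a fall of some raises the others.

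**Figure D2:**
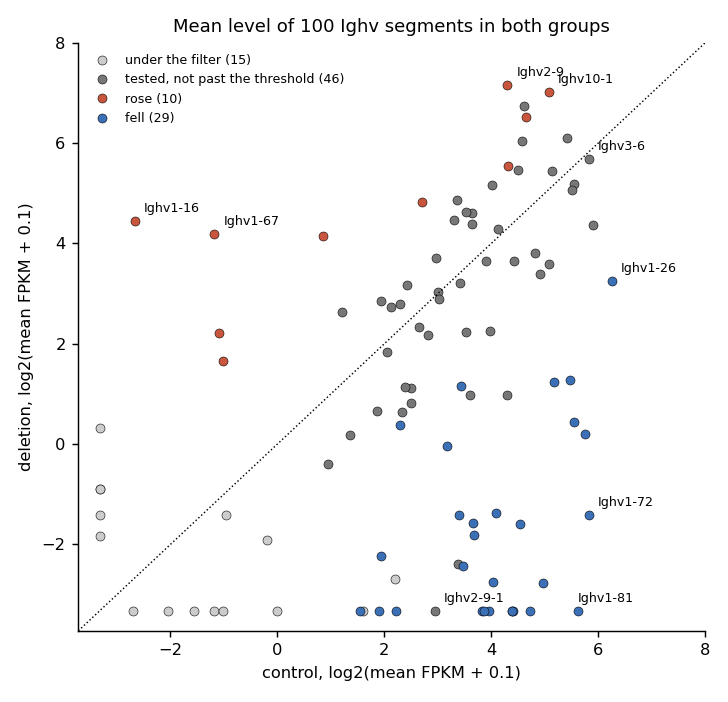
Mean level of the 100 segments above 0 in any library, as log2(mean FPKM + 0.1), control on the horizontal and deletion on the vertical axis. Circles are coloured by the result of the limma test, the dotted line marks equal levels, and the row along the bottom holds segments at 0 in all deletion libraries, such as Ighv2-9-1 and Ighv1-81.

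Among the segments that rose, Ighv1-16 and Ighv1-67 of family 1 went from near 0 to a substantial level. Ighv1-16 read 0, 0.171 and 0 FPKM in control and 19.3, 23.6 and 22.0 FPKM in deletion libraries, which is 1 fragment against 399 (log2 fold change 4.42, SE 0.11, limma adjusted p = 5.06e-06). Ighv1-67 read 0.33, 0.513 and 0.183 FPKM in control and 14.6, 21.4 and 18.5 FPKM in deletion libraries (3.83, SE 0.15, adjusted p = 7.01e-05). Both groups of libraries were tight for these segments, and control 2 did not stand apart. Ighv2-9 rose by 2.97 on the log2 scale (SE 0.42, limma adjusted p = 0.00962) and became the most abundant segment of the deletion group, with a share of 1.31% ± 0.45 in control and 10.6% ± 1.49 in deletion libraries (SD, n = 3). Ighv5-2, the second segment from the constant genes, rose from 0.139, 0.431 and 0.616 FPKM to 2.56, 3.09 and 3.53 FPKM. Ighv8-11, near the far end, rose from 0, 0.15 and 0.963 FPKM to 4.13, 4.39 and 4.999 FPKM. Ighv1-16, Ighv1-67, Ighv5-2 and Ighv8-11 passed the filter through the deletion libraries alone, so they had to differ. Their adjusted p-values add nothing to the levels.

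The other rises depended on the libraries included. Ighv6-6 rose from 14.8, 39.3 and 20.4 FPKM to 68.1, 98.0 and 109.3 FPKM (log2 fold change 1.93, limma adjusted p = 0.0186), and its adjusted p reached 0.0766 without deletion 3. Ighv10-1 rose by 2.12 (adjusted p = 0.0239), and only without control 2 did it pass with a library left out. Ighv1-37 was uneven within the deletion group, with 5.27, 17.7 and 29.5 FPKM against 0.418, 1.73 and 2.95 FPKM in control libraries. Ighv1-4 and Ighv4-1 passed in 2 and 1 of the 6 fits with a library left out. Ighv7-1 held 12.5, 34.7 and 26.0 FPKM in control and 134.5, 42.4 and 144.4 FPKM in deletion libraries, where deletion 2 stood below the other two, and did not pass (limma adjusted p = 0.0529).

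Many of the segments that fell did so to the limit of detection. Ighv1-81, the leader of control 3, read 14.1, 74.8 and 58.6 FPKM in control and 0 in all deletion libraries. This was 1005 fragments against 0, which is at least 361.7-fold lower if 3 fragments over a whole group are taken as the floor. Ighv1-72 read 37.0, 110.3 and 22.0 FPKM in control and 0.127, 0.14 and 0.563 FPKM in deletion libraries (log2 fold change -5.19, SE 0.52, limma adjusted p = 0.00299). With voom on recovered fragments, the adjusted p was 0.0535 for Ighv1-72 and 0.0559 for Ighv1-81. Ighv3-1, the only called segment of family 3, fell from 28.4, 24.1 and 10.5 FPKM to 0 in all deletion libraries (adjusted p = 0.00115). Ighv1-81, Ighv1-72 and Ighv3-1 passed the filter through the control libraries alone, so they had to differ. Their adjusted p-values add nothing to the levels. Ighv1-26, the leading control segment, fell from 51.4, 129.8 and 46.6 FPKM to 7.39, 7.99 and 12.7 FPKM (log2 fold change -2.77, SE 0.39, limma adjusted p = 0.00948) and stayed well detected. Ighv1-64, at 46.7 ± 28.2 against 1.26 ± 0.244 FPKM, and Ighv1-42, at 8.85 ± 2.69 against 0.874 ± 0.283 FPKM (SD, n = 3), also fell and stayed above 0 in every deletion library.

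Other large falls came from several places along the locus. At the far end, Ighv1-76 read 17.5, 48.2 and 12.8 FPKM in control and 0 in all deletion libraries, Ighv1-78 read 8.41, 24.1 and 10.6 FPKM and 0, and Ighv1-80 read 11.9, 44.1 and 37.5 FPKM against 0, 0.14 and 0 FPKM. These 3 lie between order 101 and 104 of the locus and had limma adjusted p-values of 0.00217, 0.00178 and 0.00217. In the third stretch, Ighv1-19 read 10.7, 26.0 and 13.6 FPKM in control and 0, 0.283 and 0.568 FPKM in deletion libraries, and Ighv1-22 read 12.6, 42.0 and 15.2 against 0.127, 0.421 and 0.141 FPKM. Near the constant genes, Ighv5-16 of family 5 went from 13.6, 22.3 and 6.47 FPKM to 0 in all deletion libraries (adjusted p = 0.00257), at least 103.5-fold lower. All 6 passed the filter through the control libraries alone, so they had to differ and their adjusted p-values add nothing to the levels.

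Several abundant segments were not called although the groups were apart or nearly so. Ighv2-2, the third segment from the constant genes, read 11.6, 39.2 and 20.3 FPKM in control and 64.3, 48.5 and 83.6 FPKM in deletion libraries, all higher. Ighv9-3 read 16.9, 56.9 and 27.5 FPKM against 11.0, 10.5 and 14.2 FPKM, all lower. Ighv7-3 overlapped in level, at 12.8, 79.7 and 35.4 against 51.4, 58.3 and 96.6 FPKM, and its share was 2.60% ± 0.993 against 5.03% ± 0.955 (SD, n = 3). The leading segments of families 11, 12 and 15 stayed low in both groups and overlapped, with Ighv11-2 at 7.67 ± 4.11 against 12.9 ± 5.19 FPKM, Ighv12-3 at 3.54 ± 2.82 against 1.48 ± 2.08 FPKM and Ighv15-2 at 1.82 ± 1.89 against 0.655 ± 0.632 FPKM.

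A class defined after the values were seen, with at least 1 FPKM in every control library and at most 3 fragments over all deletion libraries, held 17 segments. That is 23.6% of the 72 segments at 1 FPKM or more in all control libraries. Of all 10903 genes at that control level, 0.394% met the same condition, and 0.24% of those that are not Ighv segments. None of the 67 kappa light chain variable (Igkv) segments at that level met it. At a given FPKM a short row such as an Ighv segment holds fewer fragments than a long gene. The fragment limit was thus easier to meet for short rows, and the shares over all genes were not matched for length. The class comprised Ighv2-9-1, Ighv5-16, Ighv3-1, Ighv9-2, Ighv14-4 and 12 of family 1, namely Ighv1-34, Ighv1-36, Ighv1-50, Ighv1-58, Ighv1-62-2, Ighv1-74, Ighv1-75, Ighv1-76, Ighv1-77, Ighv1-78, Ighv1-80 and Ighv1-81. Their control means ran from 2.82 to 49.1 FPKM, and 12 of the 17 had no fragment in any deletion library, with fold bounds from at least 20.7-fold to at least 361.7-fold lower. The variable exon most like each of them was 86.6% to 100% identical, and by share that nearest segment was lower in the deletion libraries for 11, higher for 3 and overlapping for 3. Ighv1-62-2 is identical to Ighv1-71 over the variable exon, so its level is uncertain. In the reverse direction, Ighv1-16 alone had at least 1 FPKM in every deletion library and at most 3 fragments over the control libraries. A further 5 segments (Ighv7-2, Ighv11-1, Ighv8-4, Ighv8-9 and Ighv8-13) were at 0 in all control libraries and reached at most 2.51 FPKM in any deletion library.

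By family, the composition shifted away from family 1, the largest and the one that fills most of the far part of the locus. Family 1 held 50.7%, 50.7% and 51.4% of the summed Ighv level in control 1 to 3 and 16.0%, 20.4% and 16.9% in deletion 1 to 3. Its sum in FPKM was 437.6, 1368 and 539.8 against 180.0, 272.3 and 265.9, also with no overlap. Of its 43 tested segments 23 fell and 4 rose, but 16 of those falls had passed the filter through control alone and 2 of those rises through deletion alone. Of the other families together 6 fell and 6 rose, 5 and 2 of them in that way. Among segments that passed in both groups, with at least 1 library of each at 1 FPKM, 7 fell and 2 rose of 23 in family 1. In the other families 1 fell and 4 rose of 35. The filter still bears on these counts, and the difference between them was not tested. Family 2, which lies near the constant genes, held 6.13%, 7.31% and 8.98% of the sum in control and 22.0%, 21.6% and 21.3% in deletion libraries. Its sum rose without overlap too, from 52.9, 197.0 and 94.3 FPKM to 247.4, 287.8 and 336.8 FPKM.

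Smaller families also differed in share without overlap between groups. Family 10, which holds only Ighv10-1 and Ighv10-3, went from 3.82% ± 0.731 to 10.5% ± 1.33 (SD, n = 3). Family 7 went from 4.51% ± 1.52 to 13.2% ± 4.88, with deletion 2 at 7.59% and the other deletion libraries at 16.6% and 15.3%. Family 6 went from 5.35% ± 0.995 to 9.78% ± 1.32, and family 4, a single segment in the table, from 1.34% ± 0.231 to 3.53% ± 0.689. Family 9 went the other way, from 3.61% ± 0.809 to 1.62% ± 0.197. In families 3, 5, 8, 11, 12, 14 and 15 the shares overlapped, and the only rows of families 13 and 16 were at 0. Within an overlapping family, segments could still part: in family 14, Ighv14-2 held 3.46% ± 1.23 in control and 1.52% ± 0.263 in deletion libraries, against the rise in share of Ighv14-1 from 0.953% ± 0.549 to 1.79% ± 0.196. The most abundant segments of families 3, 5 and 8 (Ighv3-6, Ighv5-17 and Ighv8-12) overlapped in both level and share, as did Ighv6-3 of family 6. Ighv3-6, for example, read 42.7, 99.2 and 27.8 FPKM in control and 65.2, 48.2 and 39.9 FPKM in deletion libraries (limma adjusted p = 0.973).

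**Figure D3:**
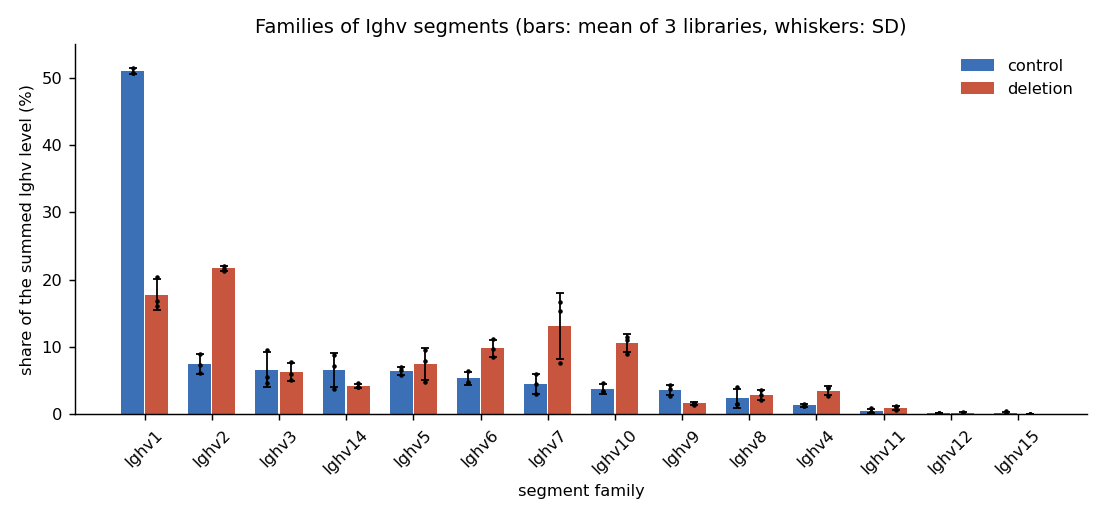
Share of the summed Ighv level (%) held by each family above 0, as mean of 3 libraries with SD whiskers and a dot per library. Family 1 holds about 51.0% in control and 17.8% in deletion libraries, and families 2, 7 and 10 hold more in the deletion libraries.

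Position along the locus parted the segments in much the same way as family. In control libraries the 4 stretches of 27 segments, from the constant genes outward, held 23.2%, 26.1%, 23.9% and 26.8% of the summed level on average, close to an even spread. In deletion libraries they held 44.1%, 38.7%, 10.9% and 6.31%. The 54 segments nearest the constant genes held 82.8% ± 1.57 of the deletion sum against 49.3% ± 2.44 of the control sum (SD, n = 3). Among these, 6 rose and 6 fell of 43 tested, and among the 54 farthest, 4 rose and 23 fell of 42 tested, with 5 and 16 of the falls passed through control alone. Among segments that passed in both groups, in the same sense, 5 rose and 1 fell of 37 near the constant genes. Far from them 1 rose and 7 fell of 21. The filter bears on these counts too, and the difference was again not tested. Family and position cannot be separated in the far stretches, since all the tested segments of the third and 21 of the 23 of the last were of family 1. The few exceptions are Ighv8-11 and Ighv8-12, the tested segments of other families in the last stretch, of which Ighv8-11 rose and Ighv8-12 overlapped. The 3 segments of family 1 in the second stretch included Ighv1-4, which rose, and none that fell. Ighv1-16 and Ighv1-37 rose in the third stretch, where 10 segments fell, and Ighv1-67 rose in the last, where 13 fell. Of these 3, only Ighv1-37 stood directly between segments that fell, Ighv1-36 and Ighv1-39.

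Relative to the constant genes, Ighv transcripts were lower in the deletion libraries. The summed Ighv level per summed level of Ighm, Ighe, Igha and the Ighg genes was 0.903, 1.04 and 0.938 in control and 0.483, 0.467 and 0.510 in deletion libraries. The groups were well apart and control 2 no longer stood out. The ratio for family 1 alone was 0.489 ± 0.0351 in control and 0.0863 ± 0.009 in deletion libraries, and that for all other families 0.471 ± 0.0361 and 0.400 ± 0.0266 (SD, n = 3). The 54 nearest segments gave 0.472 ± 0.0113 and 0.403 ± 0.023, and the 54 farthest 0.488 ± 0.0601 and 0.0837 ± 0.00612. Most of the lower ratio thus lay in family 1 and in the far segments. For the kappa light chain, the summed Igkv level per Igkc, its constant gene, was slightly higher in the deletion libraries, at 1.01, 1.00 and 1.06 in control and 1.19, 1.13 and 1.14 in deletion libraries. Of 78 tested Igkv segments 9 rose and none fell, beside a background of 8.95% of all tested genes that rose and 3.08% that fell, so the share that rose was near the background. Their median log2 fold change was 0.99, against 0.08 for all genes. The summed Igkv level was 1151, 3429 and 1413 FPKM in control 1 to 3 and 3613, 3992 and 4097 FPKM in deletion 1 to 3. These sums did not overlap, though control 2 came close to deletion 1.

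**Figure D4:**
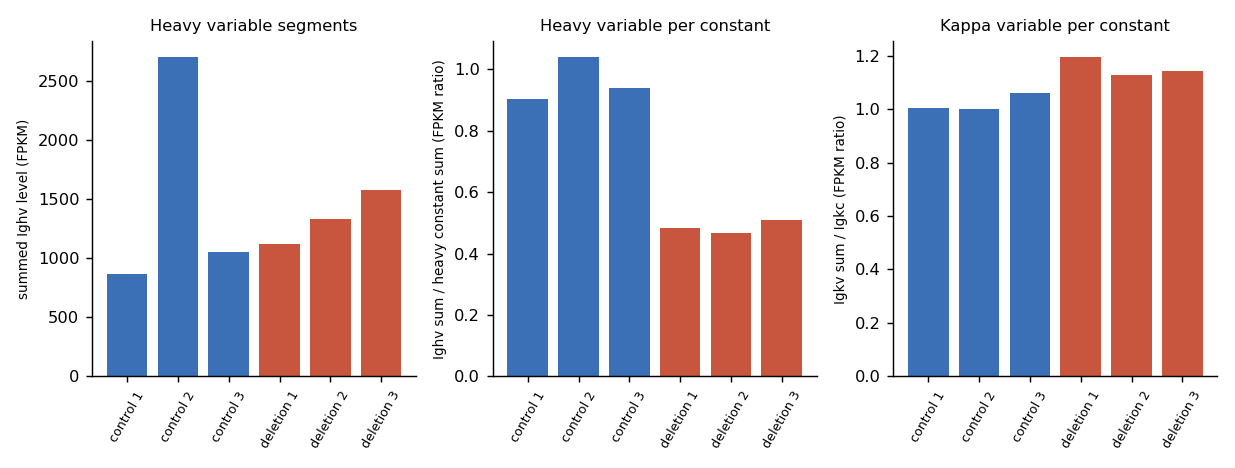
Summed Ighv level (FPKM), summed Ighv level per summed heavy chain constant level, and summed Igkv level per Igkc level, 1 bar per library. The first overlaps between groups with control 2 at 2697 FPKM, the second is 0.903 to 1.04 in control and 0.467 to 0.510 in deletion libraries, and the third is slightly higher in the deletion libraries.

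Of the constant genes, 3 of 9 tested rose and none fell (median log2 fold change 1.35, against 0.08 for all genes), beside the 8.95% of all genes that rose. Ighm, the constant gene of immunoglobulin M, rose from 442.6, 1219 and 739.3 FPKM to 1656, 1914 and 2113 FPKM (limma adjusted p = 0.0437), and Ighg1, of an immunoglobulin G class, from 5.33, 34.7 and 6.31 to 102.5, 94.9 and 114.9 FPKM (adjusted p = 0.0228). Both passed in 1 of the 6 fits with a library left out. Ighe, of immunoglobulin E, was the third, from 0.214, 0.111 and 0.198 FPKM to 3.75, 5.47 and 7.16 FPKM. Since Ighe passed the filter through the deletion libraries alone, it had to differ, and its call adds nothing to the levels. Igha, of immunoglobulin A, read 431.9, 1136 and 319.0 FPKM in control and 419.6, 706.9 and 717.6 FPKM in deletion libraries and did not pass (adjusted p = 0.847).

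Other lists covered genes that assemble, signal through or secrete antibodies, and their counts stand beside the 8.95% of all tested genes that rose and the 3.08% that fell. Of 13 tested genes of B cell receptor signalling, 1 rose, Cd22, an inhibitory coreceptor, from 1.44, 2.18 and 2.498 to 4.91, 5.35 and 5.25 FPKM (limma adjusted p = 0.00793). Of 13 genes of V(D)J recombination and somatic diversification, 1 rose, Prkdc, the catalytic subunit of DNA-dependent protein kinase, from 3.82 ± 0.141 to 5.08 ± 0.426 FPKM (SD, n = 3; limma adjusted p = 0.0426), and it passed in 0 of the fits with a library left out. None of 15 factors that act on transcription or folding of the locus was called, with Pou2f2 (adjusted p = 0.0586) and Irf8 (adjusted p = 0.0598) the nearest to it. Of 15 genes of antibody assembly and secretion, the chaperone Calr fell, from 330.5 ± 20.6 to 270.5 ± 9.40 FPKM (adjusted p = 0.0292), and passed in 1 of the 6 fits with a library left out. Of the surrogate light chain genes, Vpreb3 was the single one tested and was not called (adjusted p = 0.869).

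Foxp3 stood at 88.0 to 106.1 FPKM in all libraries, and markers of B cells were present in every library. Of 14 tested B cell markers 4 rose and none fell, where 8.95% of all tested genes rose. These were H2-Ob, Fcrl1, Cd72 and Cd22, and each passed in all 6 fits with a library left out. The summed level of the 19 listed markers was 66.4 to 96.8 FPKM in control and 138.6 to 153.2 FPKM in deletion libraries, with no marker at 0 throughout. A large part of that difference was H2-Ob, at 16.0 ± 1.82 against 42.0 ± 3.16 FPKM, and Cd72, at 7.58 ± 1.02 against 16.9 ± 1.24 FPKM (SD, n = 3). The sum was not taken without the called markers. Among uncalled markers, Bank1, Fcrla and Cd79a were higher in every deletion library. Cd79a was so by a small gap, with 5.46, 12.5 and 14.2 FPKM in control and 17.1, 14.6 and 14.4 FPKM in deletion libraries. Ms4a1, Cd79b, Pax5, Ebf1, Vpreb3, Blnk and Fcer2a overlapped. Ms4a1, Cd79a and Cd79b, which define B cells, did not pass, with limma adjusted p-values of 0.223, 0.233 and 0.344. The summed level of 12 plasma cell markers was 312.3, 616.2 and 323.7 FPKM in control and 598.8, 661.2 and 709.3 FPKM in deletion libraries, with control 2 again above the other controls, and 1 of them, Tent5c, fell (adjusted p = 0.0227), a call kept in 2 of the 6 fits with a library left out. Much of that sum was Jchain, the joining chain of secreted antibody, with 140.8, 411.4 and 152.3 FPKM against 404.1, 444.2 and 495.5 FPKM. Without Jchain the sums of the other 11 markers were 171.5, 204.8 and 171.4 FPKM in control and 194.7, 217.0 and 213.8 FPKM in deletion libraries, which overlapped. Of 8 markers of T and Treg cells 1 rose, Ikzf2, which passed in 1 of those 6 fits. Their sum was 1907 to 2163 FPKM in control and 2012 to 2044 FPKM in deletion libraries. None of 7 tested myeloid and dendritic cell markers was called (sum 14.2 to 52.3 against 11.1 to 85.4 FPKM), and none of 3 erythroid markers (21.2 to 333.8 against 7.11 to 62.1 FPKM). The part of B cell or plasma cell RNA in the Ighv differences was not tested.

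Rcor1 lies on the same chromosome as the locus, 2.46 Mb from its nearest Ighv row, and the Ighv rows span 2.43 Mb. Rcor1 itself read 16.1, 16.1 and 15.2 FPKM in control and 12.5, 13.0 and 14.2 FPKM in deletion libraries, lower in all 3 but not past the threshold (log2 fold change -0.24, SE 0.07, limma adjusted p = 0.0562). The floxed allele, and any stretch of chromosome 12 inherited with it, came with the deletion group only. Loss of Rcor1 and differences in the inherited Ighv segments therefore cannot be told apart in this design. Other genes of chromosome 12 from 100 Mb to its end, immunoglobulin genes left out, were called in 4 cases each way of 101 tested (7.92%). The share called was 15.8% on the rest of the chromosome and 11.7% on all other chromosomes.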

How the data were processed

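RNA of sorted Treg cells was sequenced from 3 control and 3 deletion samples, described as independent biological replicates in the labels. The authors deposited 1 table of FPKM values, made with STAR on mm10 per the submitters' processing notes, with 0 columns unused. The counter, the annotation release and how multiply matching reads were handled were not given in the sources used here. Symbols came from GENCODE M21 (34490 of 35275 identifiers matched), and variable exons from its transcripts. The main test was limma (version 3.58.1, R 4.3.3), two-sided, with an expression trend on log2(FPKM + 1), on genes at 1 FPKM or more in at least 3 of 6 libraries. Fold changes are deletion over control on that scale and understate changes of low genes. Whole fragments, recovered from FPKM, gene length and library total within 0.001 fragments, summed to 99.91% to 99.93% of the totals. Of 21898 genes above 0, 15056 did so with the longest annotated transcript and 6842 with a length solved from the values. Floors cover counting error only. The test was checked on simulated fragments with less spread within groups than most Ighv segments had. That check therefore does not bear on the Ighv calls. Summed levels and shares got no test.

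Of the Ighv segments, the 10 with the smallest p in each direction past the threshold, the 10 highest on average, the highest of each family, the 6 with the highest single value, and the first and last along the locus among those above 0 in all 6 libraries were to be named, 35 in all. Ighv1-81, Ighv10-3, Ighv14-1, Ighv14-4, Ighv1-75, the near-0 class and the segments at 0 in control were named after their values were seen. The members and lists were chosen with earlier results of these data known. Alternatives changed the pseudocount, filter, scaling, spread model, tool (voom), pairing and libraries. Gene identity between variable exons was computed with Biopython 1.88. A gene that the naming rule takes is not reported here. Counts by family and position among segments that passed in both groups, and the plasma cell sum without Jchain, were chosen after seeing the data.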

Additional observations from a re-analysis of the deposited data

How the results depend on the processing

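The count of Ighv segments that fell, 29, lay between 20 and 31 under every alternative, and between 23 and 31 with a library left out. The count that rose, 10, was 7 to 11 and, with a library left out, 5 to 15. Over all genes, 1036 rose and 356 fell. The rises were 566 with no filter, 473 with quantile normalization and 208 to 1441 with a library left out, and the falls 128 to 501. With median-ratio scaling 528 rose and 688 fell, so the balance over all genes turned, while the Ighv counts were 9 and 29. With voom 728 genes fell. Scaling moved the median of all genes from 0.08 to -0.01. With the replicate number as a block, 269 genes rose and 135 fell, and 10 Ighv segments rose and 27 fell. Deviations of same-numbered libraries from their group means correlated at 0.211, -0.135 and -0.162, and those of other pairs at -0.188 to 0.336. These values gave no sign that the numbers pair the samples, but so few libraries cannot exclude it. Of the listed pathway genes 5 rose and 1 fell. These were 2 and 0 with no filter, 3 and 2 with median-ratio scaling, 2 and 0 with the block, 2 falls with voom, and 2 to 15 and 0 to 3 with a library left out. The log2 ratio of summed Ighv levels, -0.19, was -0.48 to 0.49 with a library left out. Deletion libraries held on average 15.3 fewer segments above 0 (-15.33) and 22.7 fewer at 1 FPKM (-22.67). The log2 ratio of Ighv per constant level was -1.02 to -0.92, and that of Igkv per Igkc 0.15 to 0.20, with a library left out, settings chosen after seeing the data, as was the comparison by share. Segments that were not called reversed around 0. The log2 fold change of Ighv3-6, 0.03, was -0.0098 with quantile normalization, -0.067 with median-ratio scaling, -0.064 with voom and -0.374 to 0.526 with a library left out. In the same way, Ighv6-3 ran from -0.682 to 0.026, Ighv5-17 from -0.032 to 0.811 and Ighv8-12 from -0.400 to 1.06. The cause was not tested. Of the named segments, 6 lost their call and 3 gained one under some alternative. Depth limits a segment at 0 in a group to fewer than 3 fragments over its 3 libraries.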
